A study of Mus musculus with 15 samples.

Results

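Transcripts of 33 genes that mark the walls and coverings of brain blood vessels were examined in the mouse striatum. Of these, 16 are mural genes, expressed in pericytes and vascular smooth muscle, and 17 are genes of meningeal and perivascular fibroblasts. They were chosen by name from the 45777 genes of the deposited tables. Each of the 33 symbols was found in both tables.

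The 15 striatum libraries came from male wild-type ICR mice, all 7 weeks old. The founding males were 6 weeks old when they were injected under the skin on each of 21 days, either with methamphetamine (METH) at 5 mg/kg or, as controls, with a 10 mL/kg volume of saline, and they were then mated with untreated females. Their sons form the F1 groups (4 mice of the saline lineage, 3 of the METH lineage). F1 males mated with untreated females gave the grandsons of the F2 groups (4 and 4 mice). The treatment label that each offspring carries is that of the founding sire, as the protocol describes dosing of the founders alone. The labels do not tie a sample to a sire or litter, so p-values measure only the spread between these samples.

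Pericytes wrap the capillaries of the brain and hold on to the endothelium through shared basement membrane. Endothelial cells recruit them by secreting PDGF-B, which is read by PDGF receptor beta on the pericyte. Smooth muscle cells ring the arterioles and contract through actin and smooth muscle myosin. Fibroblasts lie in the meninges and along larger vessels, where they make fibrillar collagens and the small leucine-rich proteoglycans that bind to collagen fibrils.

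Counts per library ran from 31563806 to 50573906, and levels of a gene across libraries are given in CPM, its share of a library's counts scaled to a fixed total. The label for cell type is neuronal, whereas the tissue is given as striatum and the protocol describes no cell sorting. The 7 spiny projection neuron markers, led by the dopamine receptors Drd1 and Drd2, summed to 4558 to 8168 CPM, and those of vessel walls were present as well. Slc17a7, a marker of cortical excitatory neurons, was above 100 CPM in 5 libraries (F1 saline 1 and 3, F1 METH 3, F2 saline 4, F2 METH 2) and reached 525 CPM. Mitochondrially encoded genes took 7.84% to 8.53% of counts in the F1 METH libraries and 6.64% to 7.40% in the F1 saline libraries. The part of either in the results below was not tested. In whole tissue, fewer cells of a type and less RNA per cell cannot be told apart.

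Levels between genes can be compared on the deposited TPM scale, which corrects for transcript length. The median over the 15 libraries spanned from 153 TPM for Col6a1 to 0.200 TPM for Slc47a1. Median TPM was above 10 in 6 members, above 1 in 28 and above 0.5 in 31. The members with the highest medians after Col6a1 were Vtn (63.4 TPM), a secreted adhesion protein made by pericytes in brain, and Rgs5 (59.1 TPM), a brake on G protein signalling in pericytes. Col6a2 (28.2 TPM), Mgp (22.3 TPM) and Pdgfrb (15.9 TPM) came next. Vtn and Rgs5 are neighbours in this order whose ranges overlap (54.8 to 83.4 against 47.2 to 64.5 TPM). At the other end, Cnn1, the smooth muscle calponin (median 0.218 TPM), and Slc47a1, a transporter of organic cations (median 0.200 TPM), were too low to be told apart.

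**Figure D1:**
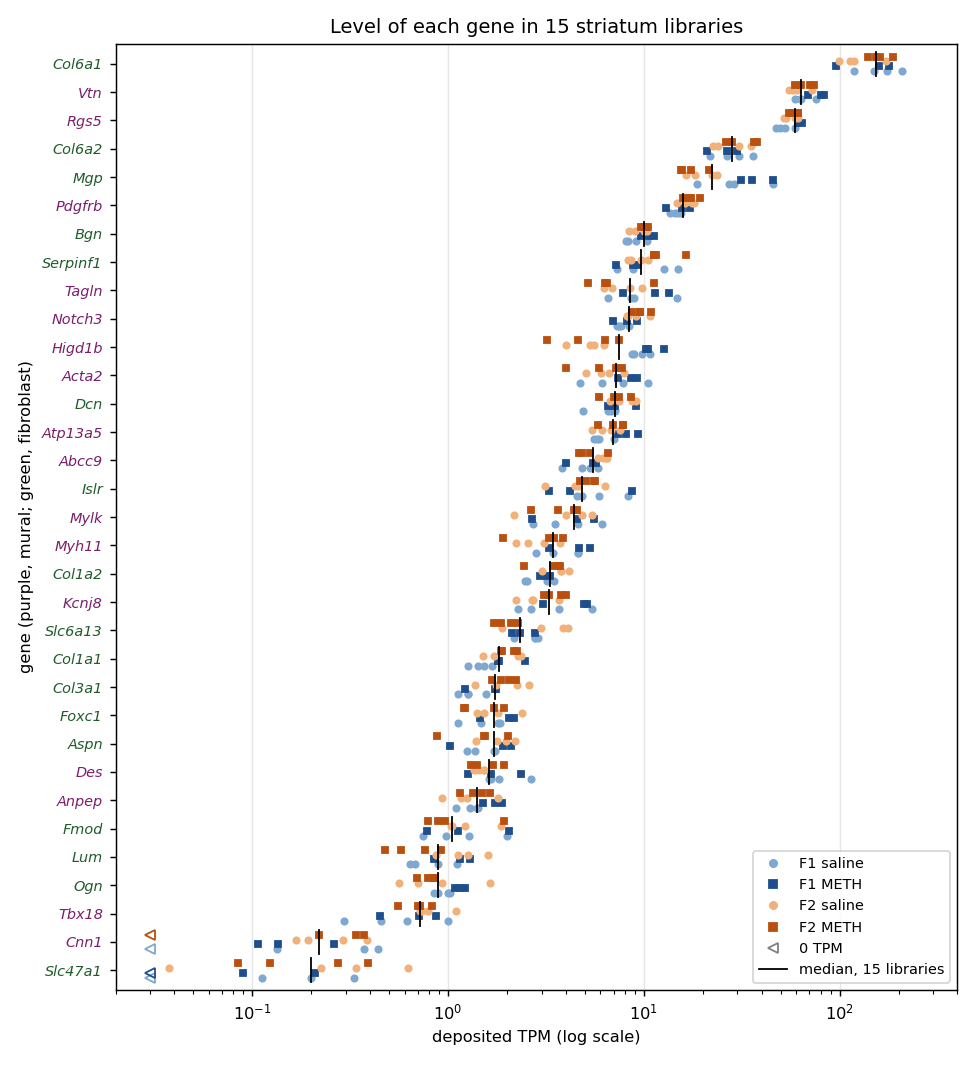
Deposited TPM of the 33 genes in each of the 15 libraries, on a log axis (circles, saline lineage; squares, METH lineage; blue, F1; orange, F2; black bar, median of the 15 libraries; open triangles, 0 TPM, drawn at the left edge). Col6a1 lies highest with a median of 153 TPM, and Cnn1 and Slc47a1 lie lowest and are at 0 in some libraries.

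Cnn1 had 0 counts in F1 saline 2 and in F2 METH 3, where 3 counts would be 0.0847 and 0.0948 CPM, and at most 14 counts elsewhere. Slc47a1 had 0 counts in F1 saline 2 and F1 METH 1, where 3 counts would be 0.0847 and 0.0936 CPM, and at most 24 elsewhere. These limits cover counting error only. Cnn1 was left out of both comparisons and Slc47a1 out of the F1 comparison by the filter on low counts, so 31 members were tested in F1 and 32 in F2.

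The smooth muscle genes among the members share a regulator in textbook accounts: serum response factor, which binds a short DNA element called the CArG box. The RefSeq promoter windows (GRCm38.p6, the same build as mm10, 300 bases around each start site, 24 of the 33 members matched) were searched for it on both strands. No member window held an exact CArG box, against 1.63% of all 32851 windows. A looser form with at most 1 C or G in its core was present in 4 member windows and in 9.98% of all windows. Those 5 sites are shown with the match in capitals and 10 bases on each side, because Acta2, the smooth muscle actin, was the 1 gene among the 4 contractile genes with a window (Acta2, Cnn1, Des, Mylk) that held any. Each is written 5′ to 3′ on the strand of its gene.
Acta2, chr19:34255438-34255467, minus strand: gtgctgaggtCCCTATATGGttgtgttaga
Acta2, chr19:34255388-34255417, minus strand: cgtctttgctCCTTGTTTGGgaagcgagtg
Col1a2, chr6:4505380-4505409, plus strand: taaagtgcttCCAAACTTGGcaagggcgag
Serpinf1, chr11:75422764-75422793, minus strand: ccatcatgtcCCAATGAAGGtcccaatgaa
Tbx18, chr9:87731374-87731403, minus strand: gattttccgaCCTTGTAAGGaagtgggcgc
The matches begin 84 and 34 bases before the start site in Acta2, 228 in Col1a2, 160 in Serpinf1 and 133 in Tbx18. Holding 2 or more such matches, as the Acta2 window does, was seen in 0.822% of all windows. GENCODE annotates both Acta2 sites as untranslated first exon of an Acta2 transcript and the Col1a2 site as intron of a Col1a2 transcript. The Serpinf1 site lies in an exon of Gm12336 and the Tbx18 site in an exon of D030062O11Rik. A match is a description of the letters only.

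Sons of METH-treated males were compared with sons of saline-treated males to ask whether the sire's exposure goes with a difference in the offspring. In F1, 25 of the 31 tested members had a higher estimate in the METH lineage, where 49.1% of all 18499 genes tested did. The median log2 fold change of the members was 0.25, against -0.0035 over all genes. No member passed an adjusted p of 0.05 in edgeR's quasi-likelihood test with Benjamini-Hochberg adjustment, and neither did any other gene (0%). At an unadjusted p under 0.05 there were 5 members, all higher in the METH lineage (2.52% of all genes were higher and 1.66% lower at that level). DESeq2 gave 4 (4.38% of all genes) and limma-voom 5 (4.41%). In 6 members all 3 METH libraries lay above all 4 saline libraries, which held for 3.08% of all genes, and in no member did they all lie below, which held for 2.42%.

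Among receptors and signalling genes of mural cells, Rgs5 stood at 82.5, 78.3, 85.3 and 102 CPM in the 4 F1 saline libraries and at 109, 105 and 110 CPM in the 3 METH libraries. The groups did not overlap, though F1 saline 4 came close. The log2 fold change was 0.31 (SE 0.095, unadjusted p 0.0104, adjusted p 0.994 by edgeR). Pdgfrb, the PDGF-B receptor, averaged 32.2 ± 1.47 CPM in saline (SD, n = 4) and 35.0 ± 4.04 CPM in METH (SD, n = 3), and its groups overlapped. Notch3, the receptor that keeps arterial smooth muscle mature, averaged 25.3 ± 1.62 and 27.8 ± 3.79 CPM, also with overlap.

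Atp13a5, a P-type ATPase used as a marker of brain pericytes, had the lowest p of the members tested in F1. It stood at 11.0, 13.5, 11.5 and 11.5 CPM in F1 saline and at 14.7, 16.2 and 18.3 CPM in F1 METH. Every METH library was above every saline library. Its log2 fold change was 0.47 (SE 0.12, unadjusted p 0.00409, adjusted p 0.994 by edgeR), a 1.38-fold difference. Anpep, the aminopeptidase also called CD13, stood at 2.04, 2.17, 2.15 and 1.77 CPM in saline and at 2.53, 2.78 and 2.99 CPM in METH. These did not overlap either, with a log2 fold change of 0.44 (SE 0.18) and an unadjusted p of 0.0361 (adjusted p 0.994 by edgeR).

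The remaining pericyte genes spread more between mice. Kcnj8 and Abcc9 encode the pore and the regulatory subunit of the vascular ATP-sensitive potassium channel and lie 16247 bases apart on chromosome 6. Kcnj8 lay between 2.37 and 5.71 CPM in the saline group and between 3.30 and 5.52 CPM in the METH group (log2 fold change 0.37, SE 0.33). Abcc9 reached 17.6 CPM in the saline group and 17.8 CPM in the METH group, with overlap (log2 fold change 0.084, SE 0.16). Over the 7 F1 libraries, no correlation between the 2 was detected. Pearson's r was -0.0081 (exact permutation p 0.985) and Spearman's rho was 0.071 (exact permutation p 0.906). With the 2 libraries farthest from the median Kcnj8 level left out, r was 0.015. For Higd1b, of the hypoxia-induced family, the estimate was 0.27 (SE 0.19), and Tbx18, a transcription factor of mural cells with only 21 to 70 counts per library, had 0.25 (SE 0.43).

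Vtn encodes vitronectin. It was at 45.1, 45.0, 52.5 and 43.6 CPM in F1 saline and at 52.9, 58.9 and 60.6 CPM in F1 METH. The groups did not overlap, but F1 saline 3 lay just under the lowest METH library. The log2 fold change was 0.30 (SE 0.090, unadjusted p 0.00867, adjusted p 0.994 by edgeR).

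The contractile genes of smooth muscle overlapped between the F1 groups. Acta2 was at 11.0, 6.44, 4.65 and 8.49 CPM in F1 saline and at 9.39, 9.42 and 7.94 CPM in F1 METH. The highest and the lowest value both belong to saline mice. Its log2 fold change was 0.22 (SE 0.26). Tagln, an actin-binding protein of smooth muscle, had 0.23 (SE 0.30), and Myh11, the smooth muscle myosin heavy chain, had 0.27 (SE 0.22). Mylk, the kinase that activates myosin, had 0.00082 (SE 0.16), and Des, the intermediate filament desmin, was the 1 mural gene with a lower estimate, at -0.087 (SE 0.29). None of the 5 tested contractile genes had an unadjusted p under 0.05 (smallest 0.250, Myh11).

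**Figure D2:**
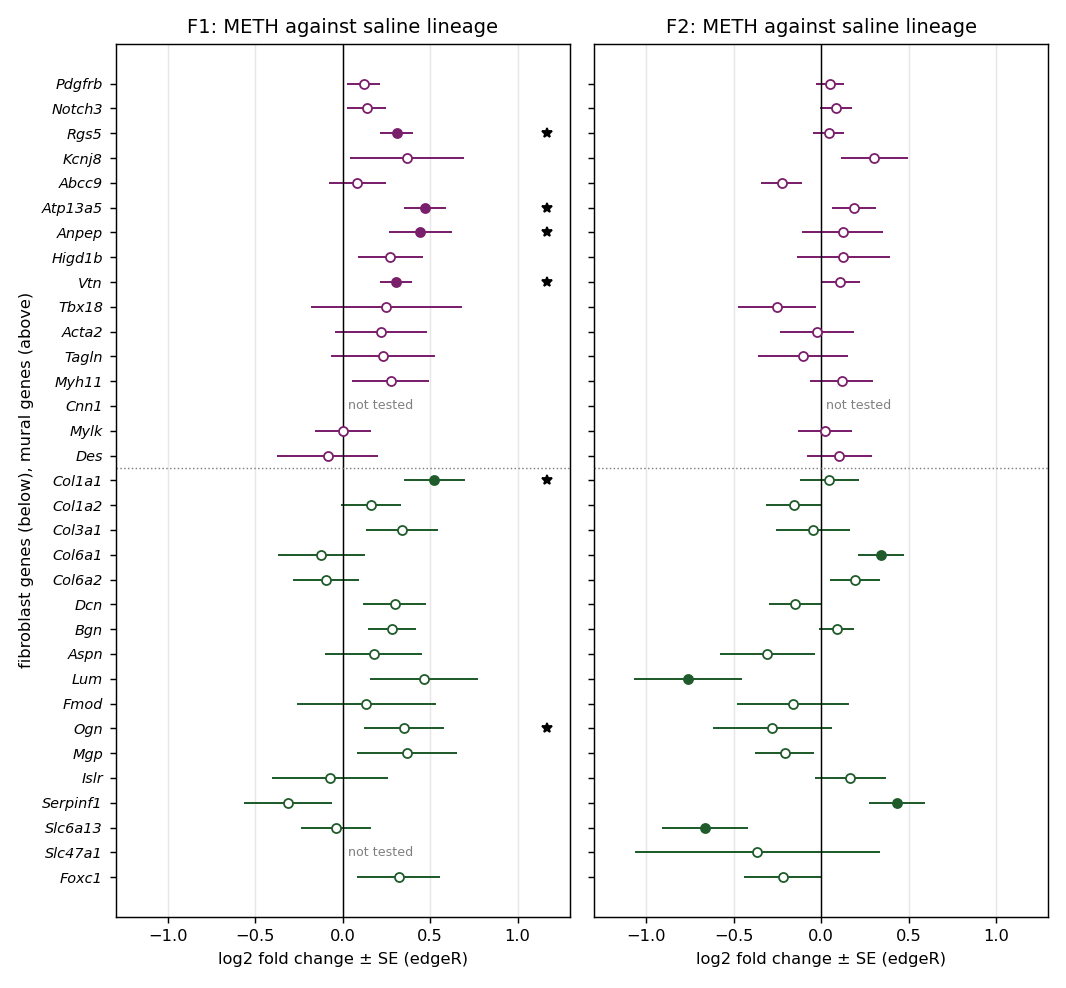
The edgeR log2 fold change of METH against saline lineage with its standard error for each gene in F1 (left) and F2 (right), mural genes above the dotted line and fibroblast genes below it. Filled points have an unadjusted p under 0.05 and stars mark genes whose METH libraries all lay above the saline libraries. In F1 the estimates lie mostly to the right of 0, with 14 of 15 mural and 11 of 16 fibroblast genes higher, and no star appears in F2.

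Of the collagens, Col1a1, the main chain of collagen I, was at 4.08, 3.44, 3.60 and 3.16 CPM in F1 saline and at 4.68, 6.19 and 4.53 CPM in F1 METH. The groups did not overlap, and F1 METH 2 was the highest. Its log2 fold change of 0.52 (SE 0.18, unadjusted p 0.0162, adjusted p 0.994 by edgeR) was the largest among the members. Col1a2, which supplies the partner chain, had only 0.16 (SE 0.17), and Col3a1, the chain of collagen III, had 0.34 (SE 0.20). The ranges of the last pair overlapped between groups.

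Collagen VI, which forms beaded filaments beside cells, went the other way in its estimates. Col6a1 was at 244, 192, 275 and 352 CPM in F1 saline and at 309, 160 and 263 CPM in F1 METH, so both groups covered nearly the same span. The log2 fold changes were -0.12 (SE 0.25) for Col6a1 and -0.097 (SE 0.19) for Col6a2, the adjoining gene 85161 bases away on chromosome 10. Both signs turned without F1 saline 4 (0.043 and 0.055) or without F1 METH 2 (0.11 and 0.039).

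All 6 small leucine-rich proteoglycans had positive estimates in F1, from 0.13 (Fmod) to 0.46 (Lum). Ogn, osteoglycin, was at 0.910, 1.07, 0.919 and 1.13 CPM in saline and at 1.40, 1.20 and 1.27 CPM in METH. The groups did not overlap, and with 33 to 46 counts per library the unadjusted p was 0.161 (log2 fold change 0.35, SE 0.23). Bgn, biglycan, averaged 8.93 ± 1.25 CPM in saline (SD, n = 4) and 10.9 ± 0.588 CPM in METH (SD, n = 3), with a log2 fold change of 0.28 (SE 0.14). Decorin (Dcn) had 0.30 (SE 0.18), lumican (Lum) 0.46 (SE 0.31), asporin (Aspn) 0.18 (SE 0.28) and fibromodulin (Fmod) 0.13 (SE 0.40). Leaving out F1 METH 3 turned Aspn to -0.0070 and Fmod to -0.30, and leaving out F1 saline 2 turned Fmod to -0.051.

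The other fibroblast genes were mixed in F1. Mgp, an inhibitor of calcification (0.37, SE 0.29), and Foxc1, a transcription factor needed to form the meninges (0.32, SE 0.24), had positive log2 fold changes. Serpinf1, the secreted factor PEDF (-0.31, SE 0.25), Islr, a secreted leucine-rich repeat protein (-0.074, SE 0.33), and Slc6a13, a GABA and taurine transporter (-0.041, SE 0.20), had negative ones. The sign of Slc6a13 turned without F1 saline 1 or 4 or F1 METH 3, and that of Islr without F1 saline 3 or F1 METH 1 or 2.

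The second comparison asked the same of the grandsons. In F2, 17 of 32 tested members had a higher estimate in the METH lineage, near the 49.5% seen over all 18093 genes tested, and the members' median log2 fold change was 0.031, against -0.0020 over all genes. No member and no other gene (0%) passed an adjusted p of 0.05 by edgeR. At an unadjusted p under 0.05 there were 2 members higher and 2 lower (2.11% and 2.66% of all genes), all of them fibroblast genes. DESeq2 gave 4 members (5.02% of all genes) and limma-voom 3 (5.13%). In no member did the METH libraries lie all above or all below the saline libraries, which held for 1.35% and 1.19% of all genes.

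Lum had the largest difference among the members. It was at 1.02, 1.28, 0.696 and 0.836 CPM in F2 saline and at 0.761, 0.617, 0.379 and 0.473 CPM in F2 METH. Only F2 METH 1 reached into the saline range. The log2 fold change was -0.76 (SE 0.31, unadjusted p 0.0327, adjusted p 0.960 by edgeR), on 12 to 44 counts per library.

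Slc6a13 was at 3.42, 2.44, 1.57 and 3.01 CPM in F2 saline and at 1.44, 1.89, 1.49 and 1.72 CPM in F2 METH. Of the saline libraries, F2 saline 3 lay among the METH values. Its log2 fold change was -0.67 (SE 0.25, unadjusted p 0.0212, adjusted p 0.960 by edgeR).

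The other pair were higher in F2 METH. Serpinf1 was at 6.09, 4.74, 4.91 and 5.18 CPM in saline and at 6.51, 6.53, 6.04 and 9.21 CPM in METH, where F2 METH 4 stood above the rest. Its log2 fold change was 0.43 (SE 0.16, unadjusted p 0.0198, adjusted p 0.960 by edgeR). Col6a1 was at 152, 178, 172 and 246 CPM in saline and at 214, 241, 267 and 227 CPM in METH. Here F2 saline 4 alone reached the METH range, and the log2 fold change was 0.34 (SE 0.13, unadjusted p 0.0252, adjusted p 0.960 by edgeR). Col6a2 had 0.19 (SE 0.14).

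**Figure D3:**
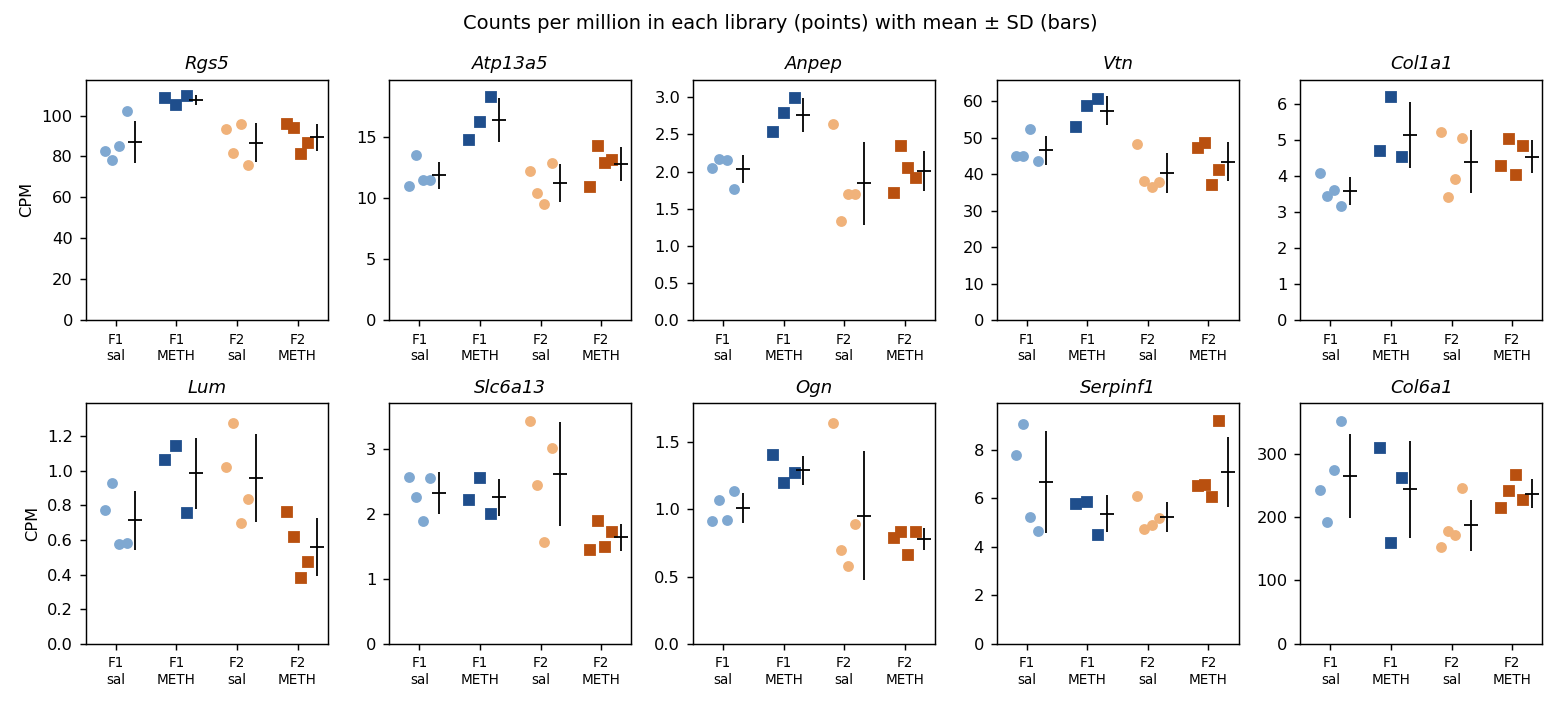
CPM of 10 genes in each library (circles, saline lineage, written sal; squares, METH lineage), with the mean and SD of each group as a bar to the right; axes start at 0. The F1 METH points of Rgs5, Atp13a5, Anpep, Vtn, Col1a1 and Ogn all lie above the F1 saline points, whereas no gene shows this in F2, and the single high Ogn point is F2 saline 1 at 1.64 CPM.

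No mural gene had an unadjusted p under 0.05 in F2. Rgs5 was at 93.2, 81.8, 96.0 and 75.8 CPM in F2 saline and at 95.9, 93.7, 81.1 and 86.5 CPM in F2 METH, with full overlap. Its log2 fold change was 0.042 (SE 0.086). Atp13a5 had 0.19 (SE 0.12), Anpep 0.12 (SE 0.23) and Vtn 0.11 (SE 0.11). Over all 15 tested mural genes the range ran from -0.25 (Tbx18, SE 0.22) to 0.30 (Kcnj8, SE 0.19). The smallest unadjusted p was 0.0777 for Abcc9, whose estimate was -0.23 (SE 0.12). The contractile genes lay between -0.11 (Tagln) and 0.12 (Myh11).

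Most fibroblast genes had negative estimates in F2, 11 of 17. Col1a1 (0.047, SE 0.17) and Bgn (0.089, SE 0.10) were higher, as were Col6a1, Col6a2, Islr and Serpinf1. The other 11 were lower, among them Col1a2 (-0.16, SE 0.16), Dcn (-0.15, SE 0.15), Aspn (-0.31, SE 0.27), Ogn (-0.28, SE 0.34), Mgp (-0.21, SE 0.17) and Foxc1 (-0.22, SE 0.22). Of the 17 fibroblast genes, 8 had their highest F2 level in F2 saline 1, including Col1a1, Col1a2, Col3a1 and Dcn. Ogn, for instance, was at 1.64 CPM there and between 0.577 and 0.892 CPM in the other 7 F2 libraries. By contrast, F2 saline 1 had the lowest F2 levels of Col6a1 (152 CPM) and Col6a2 (33.2 CPM). The share of all genes that peak in that library was not computed.

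The difference between generations was fitted as an interaction over all 15 libraries. No member passed an adjusted p of 0.05 by edgeR, and 1 gene of all 19308 did (0.00518%). The difference of F2 minus F1 was positive in 8 of the 33 members and in 49.9% of all genes. In all, 2 members had an unadjusted p under 0.05 by DESeq2 (5.2% of all genes) and 2 by limma-voom (5.25%). By edgeR, positive and negative differences at that level numbered 1 each among the members (1.72% and 3.16% of all genes). Lum had the negative one, with a log2 difference of F2 minus F1 of -1.24 (SE 0.43, unadjusted p 0.0106, adjusted p 0.898 by edgeR). Serpinf1 had the positive one, 0.74 (SE 0.30, unadjusted p 0.0258, adjusted p 0.957 by edgeR). For the genes that stood out in F1 the log2 differences were -0.27 for Rgs5 (SE 0.13), -0.29 for Atp13a5 (SE 0.17) and -0.48 for Col1a1 (SE 0.24). The unadjusted p of these were 0.0590, 0.111 and 0.0578 (adjusted p 1.00 by edgeR). The log2 differences of Vtn and Anpep were -0.20 and -0.33, and no mural gene had an unadjusted p under 0.05 for the difference by edgeR.

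The mural genes were set against the 11 collagens and proteoglycans among the fibroblast genes. In F1 both were higher in the METH lineage by their medians. The median log2 fold change was 0.25 over the 15 tested mural genes (14 higher) and 0.28 over the collagens and proteoglycans (9 of 11 higher), a difference of -0.033. In F2 the mural median was 0.084 (11 of 15 higher) and that of the collagens and proteoglycans was -0.15 (4 of 11 higher), a difference of 0.23. These medians carry no test, because the genes were chosen with results of these libraries known. The size of these medians depended on single libraries. In F1 the mural median was 0.16 without F1 saline 2 and 0.16 without F1 saline 3. In F2 it was 0.0028 without F2 saline 2 (9 of 15 higher), 0.046 without F2 saline 3, 0.055 without F2 METH 1 and 0.038 without F2 METH 3. Without F2 saline 1 the collagens and proteoglycans had a median of 0.11 (6 of 11 higher) and the F2 difference was -0.0067. The F2 difference was 0.15 without F2 saline 2, 0.087 without F2 METH 3, 0.091 without F2 METH 4 and 0.13 with a filter on mean CPM, and it was 0.16 without F2 METH 1. The median of the collagens and proteoglycans in F2 was -0.049 without F2 METH 3 and -0.029 without F2 METH 4. Without F2 saline 2 and 3 together, the mural median in F2 became -0.030 (5 of 15 higher) and that of the collagens and proteoglycans -0.25 (2 of 11 higher). Those were the F2 saline libraries with the lowest mean mural levels (-0.14 and -0.082 from the generation mean). Leaving out exactly this pair was bound to lower the mean mural difference, so the setting is no independent check.

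The same comparison can be read library by library, as the mean log2 CPM of a list minus its mean over the generation. For the mural genes, the F1 METH libraries stood at 0.20, 0.10 and 0.11 and the F1 saline libraries at 0.11, -0.22, -0.24 and -0.050. Here F1 saline 1 reached the METH values. For the collagens and proteoglycans, the F1 METH libraries stood at 0.096, 0.13 and 0.14 and the saline libraries at 0.0066, -0.23, -0.074 and -0.078, without overlap. In the contractile genes F1 saline 1 was at 0.23, and in the other 10 mural genes at 0.043, where all METH libraries were at 0.13 to 0.19. F1 saline 1 also had the highest F1 level of Acta2, Tagln, Kcnj8 and Tbx18, and the lowest of Atp13a5 and Higd1b.

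In F2 the lists overlapped throughout. The mural values of the saline libraries spanned -0.14 to 0.14 and those of the METH libraries -0.043 to 0.11. For the collagens and proteoglycans the spans were -0.13 to 0.21 and -0.19 to 0.088. F2 METH 4 had a mural value of 0.021 beside -0.19 for the collagens and proteoglycans, the widest gap of any library. The mural value was also the higher one in F2 METH 1 and 3 and in F2 saline 3. The order was reversed in F2 METH 2 (-0.043 beside 0.088). It was also reversed in F2 saline 1 (0.14 beside 0.21), 2 (-0.14 beside -0.0094) and 4 (0.0043 beside 0.13).

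**Figure D4:**
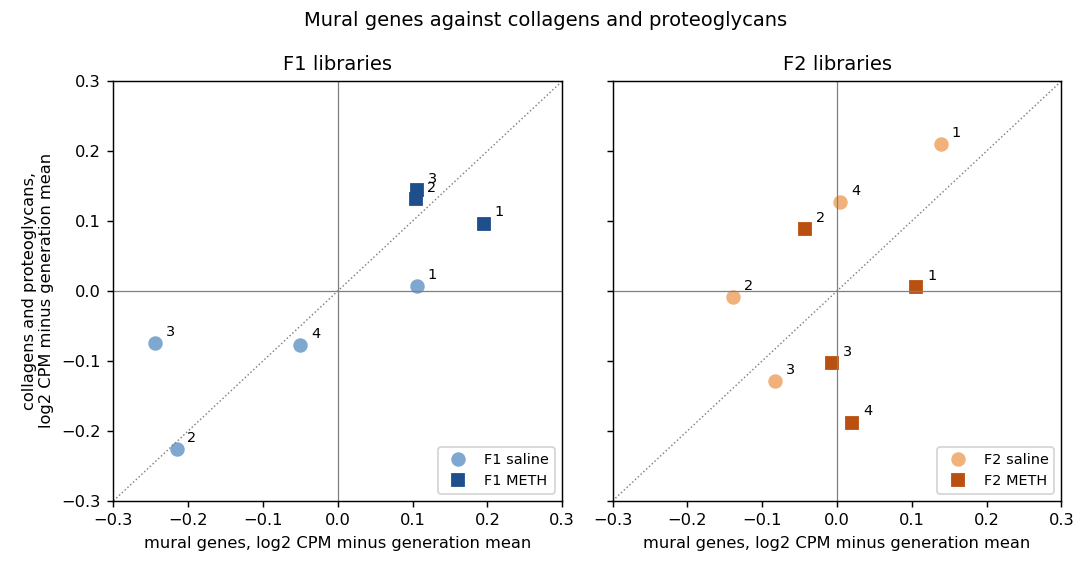
Mean log2 CPM of the mural genes (x) against that of the collagens and proteoglycans (y) in each library, both minus the mean of the generation; numbers are replicates and the dotted line marks equal values. In F1 the 3 METH libraries lie at the upper right, and F1 saline 1 has their mural level (0.11) but a lower collagen and proteoglycan level (0.0066); in F2 the groups are mixed.

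By sign, 12 of the 31 members tested in both generations were higher in the METH lineage in both, 13 were higher in F1 and lower in F2, 5 were lower in F1 and higher in F2, and 1 (Slc6a13) was lower in both. The mural genes were higher in both in 10 of 15 cases and the collagens and proteoglycans in 2 of 11. Over all genes tested, 49.1% were higher in F1 and 49.5% in F2, and the share higher in both was not computed. Among the genes higher in both, leaving out 1 library turned the sign of Rgs5, Anpep, Higd1b, Mylk and Col1a1 in F2. It also turned Mylk in F1, and signs of genes with other patterns turned as well. Col6a1 and Col6a2 were lower in F1 and higher in F2, opposite to Col1a2, Col3a1, Dcn, Lum, Ogn, Aspn and Fmod.

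Correlations of log2 CPM over the libraries of a generation were computed for 8 pairs of partner or neighbouring genes, 16 in all, and none had an adjusted p under 0.05 (Benjamini-Hochberg over the 16 exact permutation tests). Col6a1 and Col6a2 had r of 0.93 in F1 (n = 7, exact permutation p 0.00496, adjusted 0.0714) and 0.84 in F2 (n = 8, exact permutation p 0.0132, adjusted 0.0714). Spearman's rho was 0.82 (exact permutation p 0.0341) and 0.86 (exact permutation p 0.0107), and r without the 2 farthest libraries was 0.82 and 0.59. Dcn and Lum lie 47337 bases apart on chromosome 10. Their r was 0.81 in F1 (exact permutation p 0.0181, adjusted 0.0722) and -0.019 in F2 (exact permutation p 0.962, adjusted 0.985). Their rho was 0.71 (exact permutation p 0.0881) and 0.048 (exact permutation p 0.935), and r without the 2 farthest libraries was 0.59 and -0.24. Acta2 and Myh11 had r of 0.66 in F1 (exact permutation p 0.0942, adjusted 0.215) and 0.81 in F2 (exact permutation p 0.0134, adjusted 0.0714). Spearman's coefficient for this pair was 0.43 (exact permutation p 0.354) and 0.60 (exact permutation p 0.132). Without the 2 farthest libraries its r was -0.14 and 0.50. Farthest here means from the median of the first gene named in a pair. Such a cut narrows the range of that gene and can lower r by itself. For Acta2 and Tagln r was 0.74 (exact permutation p 0.0506) and 0.70 (exact permutation p 0.0559), both with an adjusted p of 0.149. Their rho was 0.86 (exact permutation p 0.0238) and 0.69 (exact permutation p 0.0694), and r without the 2 farthest was 0.90 and 0.34. Kcnj8 and Abcc9 had r of -0.54 in F2 (exact permutation p 0.166, adjusted 0.332), rho of -0.52 (exact permutation p 0.197) and r of -0.52 without the 2 farthest. The other 3 pairs (Col1a1 with Col1a2, Aspn with Ogn, Pdgfrb with Rgs5) had r between -0.27 and 0.46, with adjusted exact permutation p of 0.535 to 0.985.

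Collagen VI also differed from the fibrillar collagens in level. Col6a1 was at 95.6 to 209 TPM and Col6a2 at 21.0 to 38.0 TPM, whereas Col6a3, the third chain of the heterotrimer, was at 0.315 to 2.27 TPM and Col1a2 at 2.43 to 4.16 TPM. The ratio of Col6a1 to Col6a2 lay between 3.87 and 6.68. Although these chains are classed with the fibroblast genes, Col6a1 was the highest of all 33 members in each of the 15 libraries.

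Within groups, the spread differed widely between members. The pooled SD of log2 CPM was 0.12 in F1 and 0.11 in F2 for Pdgfrb, 0.13 and 0.14 for Rgs5 and 0.16 and 0.091 for Bgn. It was 0.42 and 0.35 for Acta2, 0.47 and 0.42 for Tagln and 0.59 and 0.47 for Fmod. For Ogn it was 0.14 in F1 and 0.45 in F2, and for Des 0.40 and 0.16. At 33 to 46 Ogn counts per F1 library and 58 to 93 Des counts per F2 library, counting error is part of these values. The wider values include single high libraries, F2 saline 1 for Ogn (1.64 CPM) and F1 saline 4 for Des (3.45 CPM).

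Genes that act on or beside the members were looked at in 9 further lists with 127 genes, and none passed an adjusted p of 0.05 in either generation. The PDGF, angiopoietin and endothelin list (8 of 11 higher in F1, 1 of 11 in F2) gave log2 fold changes of -0.0081 (F1, SE 0.12) and -1.8e-05 (F2, SE 0.13) for Pdgfb, the ligand of Pdgfrb, -0.12 and -0.031 for Pdgfa and 0.026 and 0.16 for Pdgfc. The list's median was 0.045 in F1 and -0.071 in F2. The Notch list (7 of 12 higher in F1, 9 of 12 in F2, medians 0.025 and 0.069) included the ligands Jag1 (0.26 and 0.21) and Dll4 (-0.12 and 0.072) and the receptor Notch1 (0.017 and 0.011). Of the TGF-beta list 10 of 14 were higher in F1 and 5 of 14 in F2 (medians 0.078 and -0.055), with Tgfb1 at 0.078 and -0.084, Tgfb2 at 0.079 and -0.11 and the receptor Tgfbr2 at 0.00042 and -0.10.

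Serum response factor, its cofactors and further contractile genes were higher in 11 of 15 cases in F1 and 6 of 14 in F2 (medians 0.098 and -0.029). Srf itself had log2 fold changes of 0.20 and -0.033, the cofactor myocardin (Myocd) -0.88 in F1 with an SE of 0.57 and no test in F2, and the myosin light chain Myl9 0.31 and 0.045. Other pericyte genes were higher in 11 of 13 cases in F1 and 7 of 13 in F2 (medians 0.12 and 0.032). Among them Cspg4, the proteoglycan NG2, had 0.12 and 0.032, the adhesion molecule Mcam 0.10 and 0.065, and Cox4i2, a cytochrome oxidase subunit, 0.0051 and -0.075.

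For further meningeal fibroblast genes the counts were 14 of 17 higher in F1 and 6 of 17 in F2 (medians 0.16 and -0.16). Aldh1a2, which makes retinoic acid, had 0.49 (SE 0.29) and 0.029, the organic anion transporter Slc22a6 had 0.14 and 0.45, and Fbln1, fibulin 1, had 0.16 and 0.12. Genes of collagen assembly were higher in 15 of 18 cases in F1 and 10 of 18 in F2 (medians 0.19 and 0.014). There, Serpinh1, the collagen chaperone, had 0.18 (SE 0.12) and -0.41 (SE 0.18, unadjusted p 0.0414), the lysyl hydroxylase Plod2 had 0.24 and 0.018, and the crosslinking enzyme Lox had 0.19 and -0.69 (SE 0.34). Basement membrane genes were higher in 10 of 13 cases in F1 and 8 of 13 in F2 (medians 0.069 and 0.0077), with Col4a1 at -0.021 and -0.045, Lama4 at 0.32 and 0.091 and Nid1 at 0.15 and 0.0077. Of the other small leucine-rich proteoglycans only 5 could be tested in F1 (1 higher) and 4 in F2 (2 higher). Prelp had -4.5e-05 and -0.10, Ecm2 had -0.015 and 0.12 and Podn had -0.066 and 1.09 (SE 0.89).

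Markers of other cell types that share these vessels also had mostly higher estimates in F1 METH. Of 11 endothelial markers 9 were higher in F1 METH (median log2 fold change 0.23), 6 at an unadjusted p under 0.05 by edgeR. At that level 2.52% of all genes were higher. In F2, 3 of 11 endothelial markers were higher (median -0.12). Their summed level was 324 to 356 CPM in F1 saline and 381 to 429 CPM in F1 METH. Cldn5, the tight junction claudin, had -0.0078 (SE 0.15) in F1, and Pecam1, the adhesion molecule CD31, had 0.13 (SE 0.10). Perivascular macrophage markers were higher in 5 of 6 cases in F1 (median 0.46; Mrc1 0.44, Cd163 0.48), with sums of 4.52 to 6.22 CPM in saline and 6.79 to 7.30 CPM in METH. By mean log2 CPM minus the generation mean their F1 groups overlapped, with saline up to 0.24 and METH from 0.12. In F2, 2 of 5 were higher (median -0.21; Mrc1 -0.21, Cd163 0.30). The F1 endothelial median was 0.15 without F1 METH 3. Without F2 saline 1 the F2 medians were -0.063 (endothelial) and -0.081 (perivascular macrophage). Neither list had a marker at 0 in every library of a group. Their part in the members' values was not tested.

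**Figure D5:**
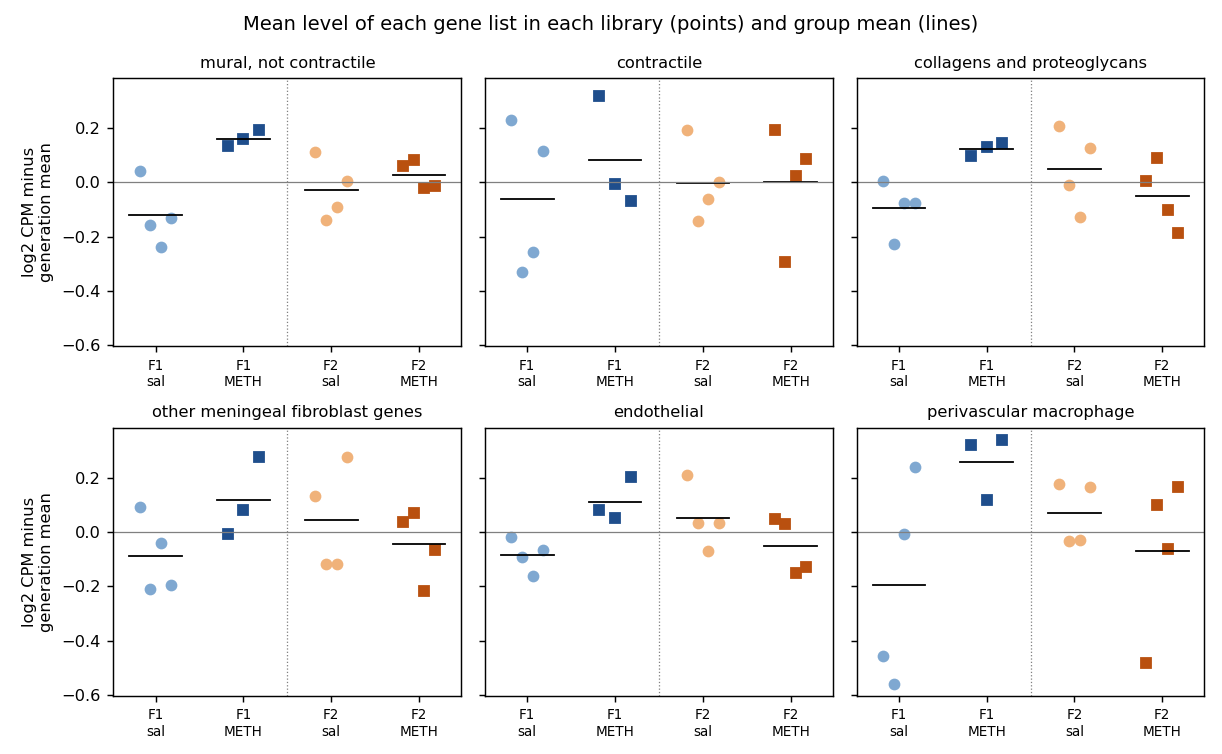
Mean log2 CPM of 6 gene lists in each library minus the mean of its generation (circles, saline lineage, written sal; squares, METH lineage; line, group mean). In F1 the METH libraries lie above the saline libraries in the mural genes other than contractile ones, the collagens and proteoglycans and the endothelial markers. The contractile genes, other meningeal fibroblast genes and perivascular macrophage markers overlap in F1, and all 6 lists overlap in F2.

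Markers of tissue next to the striatum and of blood gave the following values. Cortical excitatory neuron markers were higher in 1 of 7 cases in F1 (Slc17a7 -0.67 with SE 1.25) and in 3 of 7 in F2, with sums from 137 to 829 CPM. Without F1 saline 3, 6 of the 7 were higher in F1. Erythrocyte markers were higher in 0 of 5 cases in F1 (median -1.15; Hba-a1 -1.18, Hba-a2 -1.16) and in 2 of 5 in F2, with sums of 115, 193, 121 and 844 CPM in F1 saline and 124, 170 and 151 CPM in F1 METH. The lower F1 values rested on F1 saline 4: without it 5 of 5 erythrocyte markers were higher in F1 METH, with a median of 0.045. Choroid plexus markers were higher in 2 of 5 cases in F1 and 1 of 5 in F2 (Ttr 0.17 and -0.60, Kl 0.044 and -0.10). Their sums ran from 17.9 to 53.4 CPM. Astrocyte markers were higher in 5 of 6 cases in F1 and 0 of 6 in F2 (Aqp4 0.13 and -0.19, Gja1 0.19 and -0.071). Their F1 median was 0.17, and it fell to 0.0052 without F1 METH 3, where 3 of 6 were higher. In F2 the astrocyte median was -0.17, and -0.057 without F2 saline 1 (1 of 6 higher). Skeletal muscle markers, which share genes of contraction, summed to at most 9.01 CPM (Acta1 0.044 and 0.26), and Ckm was at 0 in the F2 METH libraries and was not tested. Spiny projection neuron markers were higher in 7 of 7 cases in each generation (medians 0.19 and 0.075; Drd1 0.057 and 0.11, Drd2 0.23 and 0.075). Without the 5 libraries above 100 CPM for Slc17a7, only 4 F1 libraries were left (F1 saline 2 and 4, F1 METH 1 and 2). Of these, F1 saline 2 was just under the limit, at 97.9 CPM. The F1 mural median was then 0.26 (14 of 15 higher) and that of the collagens and proteoglycans 0.23 (9 of 11 higher). In that setting 3 members had an unadjusted p under 0.05 in F1, as did 2.58% of all genes.

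Some members share their place in the genome with other genes, and whether the counting used the strand is not given in the sources used here. Aspn (chr13:49544443-49567565) and Ogn (chr13:49608015-49624501) both lie inside the span of Cenpp. Higd1b shares 5670 bases with Eftud2, Tagln 2480 bases with Pcsk7 and Atp13a5 42 bases with Plaat1. Notch3, Abcc9, Mylk and Des overlap long non-coding RNAs, and Slc47a1 overlaps a pseudogene. Reads from the shared stretches cannot be assigned with certainty.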

How the data were processed

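Striatal total RNA of 15 libraries was sequenced. Read counts per gene were deposited by the authors as whole numbers, beside FPKM and TPM values that the authors computed, per the file headers. Per the submitters' processing notes, the build was mm10 and the tools included HISAT2 2.1.0 and StringTie 2.1.3b, besides Trimmomatic and bcl2fastq 2.20.0. Which program counted the reads, and whether by strand, is not given in the sources used here. FPKM values were not used, and the deposited TPM served for levels between genes and for 1 alternative.

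Genes with enough counts (filterByExpr, minimum count 10) were fitted within each generation with edgeR 4.0.16 in R 4.3.3 (TMM, quasi-likelihood test, Benjamini-Hochberg adjustment over all genes tested, threshold 0.05). The difference between generations was an interaction over the 15 libraries. List values per library are means of log2 CPM with a prior count of 2. Alternatives used DESeq2 1.42.0, limma 3.58.1 (voom, and trend on log2(TPM + 1)), other scalings and filters, a replicate block and left-out libraries. The fits were tested on simulated data. Total counts were 31563806 to 50573906 per library.

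The members and all lists were chosen with earlier results of these data known. All 33 members are described. Of each context list the first 3 tested genes in list order are named, and of each marker list the first 2, with others named where a result needed them. One marker that this rule would name is not reported here. All 215 listed genes matched, 2 of them by synonym. Replicate pairs of a group differed by more than sampling noise (chi-square per degree of freedom 16.1 to 65.8 over 21 pairs), so none was merged. Promoter windows are RefSeq sequences of 300 bases.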

Additional observations from a re-analysis of the deposited data

Results flagged for a closer look

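In 4 of the 99 combinations of a member with a group of 4 libraries, 1 library lay far from the other 3 by Dixon's criterion, and chance gives about 1 in 20. Pdgfrb was at 29.98 CPM in F1 saline 2, with the other F1 saline libraries at 32.7 to 33.1 CPM. Des was at 3.45 CPM in F1 saline 4, with the others at 2.04 to 2.23 CPM. Vtn was at 48.4 CPM in F2 saline 1, with the others at 36.6 to 38.3 CPM. Myh11 was at 5.34 CPM in F2 METH 2, with the others at 9.04 to 9.23 CPM.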

How the results depend on the processing

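No member passed an adjusted p of 0.05 by edgeR, DESeq2 or limma in any setting run, with a smallest adjusted p of 0.184 (F1), 0.245 (F2) and 0.573 (difference between generations). Over all genes DESeq2 called 11, 7 and 8 genes in these comparisons and limma-voom 3, 1 and 0. The cause of the shifts below was not tested. Members at an unadjusted p under 0.05 in F1 numbered 3 on TPM (5.56% of all genes) and 3 without the Slc17a7-high libraries (2.58%), and the F1 median of collagens and proteoglycans was 0.15 on TPM. In F2 they numbered 2 in one fit of 15 libraries (4.18%). Without F2 saline 2 and 3, the F2 saline pair lowest in mural genes, they numbered 2 (3.99%) and the mural median was -0.030. For the difference between generations they numbered 1 with the mean CPM filter (5.28%) and 6 without F2 saline 2 and 3 (4.35%). With a block on animal number within each lineage they numbered 1 (4.62%). With each library left out in turn, these counts ran from 4 to 5 (F1; 2.80% to 6.85% of all genes), 1 to 5 (F2; 3.26% to 8.71%) and 1 to 6 (difference; 4.22% to 6.84%). The mural minus matrix median ran from -0.15 to 0.047 in F1 and from -0.0067 to 0.22 in F2, the F2 matrix median from -0.18 to 0.11, and the mural median from 0.16 to 0.29 in F1 and from 0.0028 to 0.10 in F2.

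Same-numbered libraries did not deviate together in every pair (r from -0.062 to 0.40), so the replicate block is reported here only. It gave 6 and 4 members at an unadjusted p under 0.05 in F1 and F2, with 9.98% and 4.12% of all genes (without the block 4.18% and 4.77%). For the difference between generations the block joined F1 and F2 libraries of a lineage with the same animal number. These r do not cover that block, and METH animals 3 in F1 and 5 and 6 in F2 had no partner in it. It gave 1 member, with 4.62% of all genes (without it 4.88%). Under the replicate block the F1 log2 fold changes that turned sign were Abcc9 -0.018, Mylk -0.067, Des 0.080, Col6a1 0.0059, Col6a2 0.052 and Slc6a13 0.013. F1 METH has 3 libraries, so F1 saline 4 stood alone in its block and did not enter the F1 estimate. The same genes turned sign when F1 saline 4 was left out (Abcc9 -0.010, Mylk -0.060, Des 0.12, Col6a1 0.043, Col6a2 0.055, Slc6a13 0.011).

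Mylk in F1 was -0.0014 with DESeq2 size factors, -0.028 with library totals, -0.0019 by DESeq2, -0.012 by limma-voom, -0.0030 without a filter and -0.0047 in one fit. In F2, Slc47a1 was 0.072 by limma-voom, Higd1b -0.0096 and Mylk -0.053 on TPM, and Rgs5 -0.040 and Acta2 0.10 without the Slc17a7-high libraries. Without F2 saline 2 and 3, Pdgfrb was -0.030, Notch3 -0.030, Anpep -0.11, Higd1b -0.063, Myh11 -0.029, Mylk -0.16, Col1a1 -0.18 and Bgn -0.0093. That pair was lowest in mural genes among the F2 saline libraries, so lower mural estimates there follow from the choice of libraries.

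Leaving out each library in turn turned the sign of these F1 values: Abcc9 (-0.010 to 0.21), Aspn (-0.0070 to 0.42), Col6a1 (-0.33 to 0.11), Col6a2 (-0.22 to 0.055), Des (-0.37 to 0.12), Fmod (-0.30 to 0.43), Islr (-0.58 to 0.17), Mylk (-0.16 to 0.098), Slc6a13 (-0.14 to 0.039) and Tbx18 (-0.0029 to 0.62). In F2 it turned Acta2 (-0.17 to 0.14), Anpep (-0.00057 to 0.35), Col1a1 (-0.056 to 0.14), Col3a1 (-0.20 to 0.12), Fmod (-0.55 to 0.038), Higd1b (-0.029 to 0.28), Mylk (-0.10 to 0.099), Ogn (-0.47 to 0.12), Rgs5 (-0.017 to 0.092), Slc47a1 (-0.79 to 0.28) and Tagln (-0.42 to 0.028). Counts per library were at most 14 for Cnn1, 24 for Slc47a1 and 44 for Lum.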
